A study of Mus musculus with 247 samples.

Results

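The fatty acid handling genes described here are 8 of the 14378 genes in an RNA table of RAW264.7 cells, a mouse macrophage line. They are Cd36, Lpl, Fabp3, Fabp4, Fabp5, Plin2, Pparg and Ppard, and they were chosen by name after their RNA values in untreated GPS2 knockout and wild-type cells were known. All 8 passed the filter on low values. Regions were added to the set where the deposited annotation gave a member as the nearest gene, which held for 70 of 73206 open chromatin sites (ATAC-seq), 43 of 52093 PU.1 sites, 62 of 58888 JunB sites, 44 of 26718 MED1 sites and 27 of 23360 RNA polymerase II sites.

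The RNA-seq groups were GPS2 KO with lipopolysaccharide (LPS, 10 ng/ml for 6 h), WT with LPS, GPS2 KO untreated and WT untreated, with 4 libraries each. ChIP-seq covered PU.1 and JunB in KO and WT cells with LPS for 2 h and untreated, and MED1 and RNA polymerase II in KO and WT cells with LPS for 2 h, with 2 libraries a group. ATAC-seq compared 3 untreated GPS2 KO libraries with 3 libraries of untreated CRISPR control cells (titled CRISPR_KO_Ctrl). The KO was made with CRISPR/Cas9 in a line of BALB/c origin. The labels used here name no separate clones, and p-values therefore measure the spread between libraries, which may be technical.

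Macrophages take up fatty acids and modified lipoproteins and store the surplus as lipid droplets, a process that ends in foam cells in atherosclerotic plaques. CD36 is the scavenger receptor for oxidised lipoprotein and long-chain fatty acids at the cell surface, lipoprotein lipase releases fatty acids from triglyceride outside the cell, the FABP carriers bind them in the cytosol, and perilipin 2 coats the droplets. PPARγ and PPARδ are nuclear receptors that bind fatty acids and switch on genes of this kind, Cd36, Fabp4 and Plin2 among them. GPS2 is a subunit of the NCoR/SMRT corepressor complex, which holds nuclear receptor and inflammatory target genes in check, and LPS is the bacterial ligand of the receptor TLR4.

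The regions shown here held the largest change between genotypes in open chromatin at Cd36 and Fabp5, and in PU.1 at Cd36 among sites with at least 50 reads. Their part in the RNA results was not tested. All are mm9, centred on the deposited site and read 5′ to 3′ along the strand of the gene. Capitals would mark a match to one of the patterns named after the sequences, and these stretches have none.
Cd36, open site at -387 bases from a start, chr5:17355897-17356097, minus strand: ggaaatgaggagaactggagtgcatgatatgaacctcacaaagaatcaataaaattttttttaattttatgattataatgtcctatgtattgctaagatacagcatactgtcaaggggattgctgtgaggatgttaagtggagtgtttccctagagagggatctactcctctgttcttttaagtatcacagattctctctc
Cd36, PU.1 site at -180 bases from a start further inside the locus, chr5:17341794-17341994, minus strand: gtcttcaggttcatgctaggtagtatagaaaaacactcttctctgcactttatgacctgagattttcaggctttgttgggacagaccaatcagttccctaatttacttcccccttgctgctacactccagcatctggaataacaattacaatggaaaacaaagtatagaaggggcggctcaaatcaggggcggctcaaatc
Fabp5, intergenic open site 10184 bases after the start, chr3:10022669-10022869, plus strand: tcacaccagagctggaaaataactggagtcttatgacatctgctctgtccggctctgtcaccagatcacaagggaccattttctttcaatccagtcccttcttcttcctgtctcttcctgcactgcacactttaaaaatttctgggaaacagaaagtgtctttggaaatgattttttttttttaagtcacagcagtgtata
The search covered both strands for the AP-1 element TGANTCA, for the short PU.1 core GAGGAA, for the longer PU.1 element GAGGAAGT and for a direct repeat of AGGTCA with 1 base between its copies and up to 2 mismatches, the repeat that PPAR and RXR bind. GAGGAAGT contains GAGGAA, so the PU.1 patterns overlap. All 3 stretches held none of the 4 patterns, and variants of the PU.1 and AP-1 patterns were not searched. In windows of the same length as the Cd36 stretches around the site centres, TGANTCA stood in 13.9% of 73105 open sites with a window and in 18 of the 70 member sites. GAGGAA stood in 29.7% of open sites and in 24 of 70 member sites, and the repeat in 2.76% of open sites and in 1 of 70. That 1 match was at a Cd36 site other than the one shown. In PU.1 windows GAGGAAGT stood in 25.1% of 52033 sites and in 9 of the 43 member sites. The repeat stood in 2.68% of PU.1 windows and in 2 of the 43 member sites, 1 of Fabp5 and 1 of Plin2.

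RNA libraries held 12094940 to 22968591 mapped reads, ATAC-seq libraries 4038814 to 7108592, and ChIP-seq libraries 8096466 to 16006472. RNA values are given as normalised reads, that is deposited reads per 10000000 mapped reads divided by a trimmed mean factor. Replicate 4 of WT with LPS stood apart from the other RNA libraries, with a fitted library weight of 0.0255 against 0.652 to 2.33 elsewhere, and RNA differences that use it are also given without it. Gps2, the targeted gene, averaged 90.3 ± 9.6 normalised reads in KO with LPS and 440 ± 36.7 in WT with LPS (SD, n = 4 each). Without WT replicate 4 its log2 difference with LPS was -2.22 ± 0.07. Without LPS it averaged 132 ± 2.38 in KO and 434 ± 18.5 in WT cells, so Gps2 RNA was lower in the KO and not absent. All 10 macrophage markers were detected and tested. Their summed levels were 107933 to 113357 in KO with LPS and 86930 to 117216 in WT with LPS. Untreated, they were 121382 to 127672 in KO and 88157 to 97075 in WT cells. Single markers went in both directions. Spi1, the gene of PU.1, averaged 4161 in KO and 6042 in WT with LPS, and 2075 and 3230 untreated. Csf1r averaged 11437 in KO and 4436 in WT with LPS, and 21533 and 17128 untreated. Of 8 adipocyte markers, Adipoq, Lep and Cidec had no row in the table. Plin1 and Cfd averaged under 1 normalised read in every group. Slc2a4 averaged 3.35 normalised reads in untreated KO cells, and Retn averaged 1.51 in WT with LPS. Each of these genes averaged under 1 in its other groups. Of the 8 markers, only Adipor2 passed the filter. In bulk RNA, fewer cells of a type and less RNA per cell cannot be told apart.

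Levels of the members relative to each other were compared per kilobase of transcript. Lpl stood highest in all 4 groups, at 10518 ± 153 normalised reads per kilobase in KO with LPS, 7079 ± 276 in WT with LPS, 3456 ± 87.0 in KO untreated and 4091 ± 84.0 in WT untreated (SD, n = 4 each). In untreated KO cells the order of levels per kilobase then ran Fabp5 (1331), Plin2 (731), Fabp4 (329), Ppard (89.5), Cd36 (30.3), Fabp3 (6.75 ± 1.6) and Pparg (2.35 ± 0.135). In untreated WT cells it ran Cd36 (613), Plin2 (455), Fabp5 (330), Ppard (68.2) and Fabp4 (14.5), with Pparg (5.70 ± 1.55) and Fabp3 (5.61 ± 1.48) not apart beyond their spread. With LPS, Cd36 (516 ± 25.5) and Fabp4 (513 ± 35.9) were not apart beyond their spread in KO cells, while in WT cells Cd36 reached 1899 ± 313 and Fabp4 129 ± 57.5 per kilobase.

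**Figure D1:**
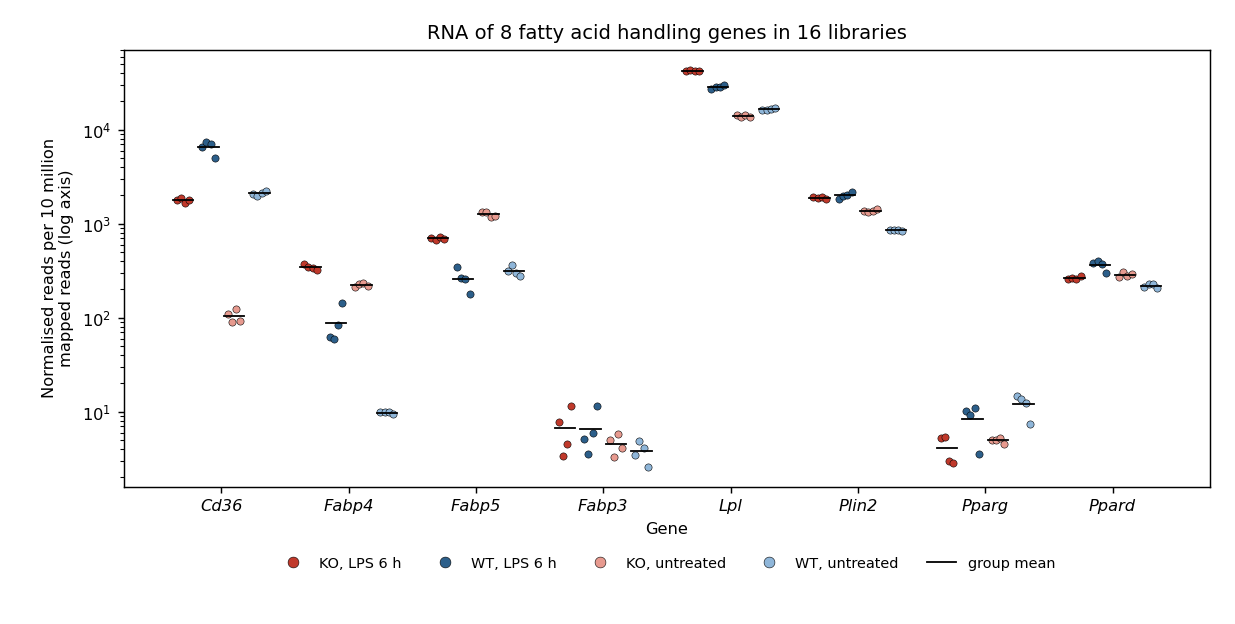
Normalised reads per 10000000 mapped reads (log axis) of the 8 genes in each of the 16 RNA libraries, with points for libraries and bars for group means of 4. Cd36 averaged 104 in untreated KO and 2104 in untreated WT cells, Fabp4 222 and 9.80, and Lpl was the most abundant member in every group.

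The untreated contrast was the one on which the members were chosen, and its values are a description. Cd36 held 108, 91.1, 123 and 93.4 normalised reads in KO libraries, against 2055, 1990, 2146 and 2225 in WT libraries. Fabp4 held 213, 227, 232 and 217 in KO libraries, against 9.85, 9.87, 9.95 and 9.51 in WT libraries. Neither gene's groups came near each other. On the log2(value + 1) scale, Cd36 differed by -4.33 ± 0.11 (SE), Fabp4 by 4.37 ± 0.19, Fabp5 by 2.01 ± 0.14, Pparg by -1.09 ± 0.30, Plin2 by 0.68 ± 0.05, Ppard by 0.39 ± 0.08, Lpl by -0.24 ± 0.04 and Fabp3 by 0.22 ± 0.34, KO over WT. The threshold of adjusted p under 0.05 was passed by 7 members, 4 higher and 3 lower, beside 35.5% of the 11791 genes tested (59.3% without WT with LPS replicate 4, which shares the estimate of the spread), and nothing is read from that count. Higher genes made up 18% and lower genes 17.5%, and the groups of 7 members and of 55.2% of all genes did not overlap.

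After LPS the KO still held less Cd36 and more Fabp4 and Fabp5 RNA than WT cells, and it now held more Lpl. Of the 8 members, 3 were higher (Fabp4, Fabp5, Lpl) and 3 lower (Cd36, Ppard, Pparg) in KO than in WT cells with LPS by limma with Benjamini-Hochberg adjustment over all genes. That stands beside 44.1% of all 11791 genes tested, or 22.1% higher and 22.1% lower, and beside 57.9% called without WT with LPS replicate 4, where the count of members was also 6. The groups of 5 members did not overlap, beside 39.5% of all genes. The median log2 difference was -0.02 over the members and 0.00 over all genes (0.00106 before rounding).

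Cd36, the uptake receptor, held 1778, 1866, 1654 and 1781 normalised reads in KO with LPS, against 6567, 7467, 7033 and 5001 in WT with LPS. All KO libraries lay below all WT libraries. The difference was -1.87 ± 0.11 on the log2 scale (adjusted p = 3.5e-09, limma), a 3.64-fold lower level in the KO, and -1.99 ± 0.08 without WT replicate 4. Lpl, the secreted lipase, held 42224, 43375, 42243 and 42011 normalised reads in KO with LPS, against 27300, 28775, 28258 and 29972 in WT with LPS. The groups did not overlap and differed by 0.57 ± 0.04 (adjusted p = 2.9e-08, limma), 1.49-fold higher in the KO, and by 0.60 ± 0.03 without WT replicate 4.

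Among the carriers, Fabp4, which adipocytes and macrophages express, held 377, 350, 338 and 319 normalised reads in KO with LPS, against 63.0, 59.1, 83.7 and 143 in WT with LPS. The KO libraries again lay above every WT library, although WT replicate 4 held the most among WT. The difference was 2.06 ± 0.19 (adjusted p = 4.6e-07, limma), and 2.33 ± 0.10 without that library. Fabp5, the carrier also found in epidermis, held 711, 671, 725 and 689 in KO with LPS, against 342, 263, 261 and 178 in WT with LPS, a difference of 1.45 ± 0.14 (adjusted p = 6.7e-07, limma), and 1.28 ± 0.09 without WT replicate 4. Its groups did not overlap. Fabp3, the heart and muscle carrier, stayed low, with 3.39 to 11.5 normalised reads in KO and 3.56 to 11.4 in WT libraries with LPS. It came from at most 13 reads a library, its groups overlapped, and the difference of 0.04 ± 0.34 did not pass the test (adjusted p = 0.93, limma), nor did 0.32 ± 0.33 without WT replicate 4 (adjusted p = 0.43, limma).

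Plin2, the droplet coat protein, was close between genotypes with LPS, at 1917, 1895, 1930 and 1853 normalised reads in KO and 1854, 1956, 1999 and 2185 in WT libraries. The difference of -0.07 ± 0.05 did not pass the test (adjusted p = 0.27, limma), and was -0.03 ± 0.04 without WT replicate 4 (adjusted p = 0.55, limma). Of the receptors, Ppard held 256, 267, 256 and 277 in KO with LPS, against 380, 399, 372 and 300 in WT with LPS, and differed by -0.45 ± 0.08 (adjusted p = 0.00032, limma), or -0.54 ± 0.06 without WT replicate 4. Every KO library lay below every WT library. Pparg was low in all libraries, at 5.21, 5.43, 3.01 and 2.87 in KO with LPS, against 10.2, 9.26, 10.9 and 3.51 in WT with LPS. Its groups overlapped through WT replicate 4, and the difference was -0.83 ± 0.30 (adjusted p = 0.035, limma). That call rests on few reads: it was lost when WT replicate 1, 2 or 3 or KO replicate 3 or 4 was left out (adjusted p 0.070 to 0.099) or when only these 2 groups were fitted (adjusted p = 0.12), and it stood at -1.15 ± 0.26 without WT replicate 4.

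Next the response to LPS was compared within each genotype. These comparisons share the untreated libraries on which the members were chosen. Their values and p-values below are not free of that choice and are a description. Cd36, Fabp4, Lpl and Plin2 were higher with LPS in both genotypes, Fabp5 was lower in the KO, and Ppard was higher in WT cells. In KO cells 5 members passed the test, 4 higher and 1 lower, beside 67.6% of all genes (31.5% higher and 36.1% lower), and the groups of 5 did not overlap, beside 77.9%. In WT cells 5 passed, all higher, beside 70.4% of all genes (34.2% higher and 36.2% lower), and the groups of 5 did not overlap, beside 60.5%. A share near that of all genes is no result about the members. Scaling by library totals in place of trimmed means moved the median response of all genes by -0.39 in KO and -0.47 in WT cells, and the responses below are relative to the trimmed means.

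Cd36 differed by 4.09 ± 0.11 with LPS in KO cells, a 17-fold higher level on that scale, and by 1.62 ± 0.11 in WT cells (adjusted p = 3.1e-14 and 2.9e-09, limma). Fabp4 differed by 0.63 ± 0.19 in KO cells and by 2.94 ± 0.19 in WT cells (adjusted p = 0.0086 and 1.2e-09, limma). The Fabp4 call in KO cells was lost with library totals, at 0.25 ± 0.17 (adjusted p = 0.22, limma). Lpl differed by 1.61 ± 0.04 in KO and 0.79 ± 0.04 in WT cells (adjusted p = 1.1e-14 and 7.2e-11, limma). Plin2 differed by 0.47 ± 0.05 in KO and 1.22 ± 0.05 in WT cells (adjusted p = 6.1e-07 and 3.3e-12, limma), the KO value falling to 0.08 ± 0.04 and losing its call with library totals. Both genotypes thus ended with close Plin2 levels after LPS, from untreated levels of 1373 ± 35.6 in KO and 855 ± 6.86 in WT cells (SD, n = 4 each).

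Fabp5 fell by 0.85 on the log2 scale with LPS in KO cells (SE 0.14, adjusted p = 6.2e-05, limma), to 699 ± 24 normalised reads against 1260 ± 68.7 untreated. In WT cells its difference of -0.29 ± 0.14 missed the threshold (adjusted p = 0.079, limma). It was -0.12 ± 0.09 without WT with LPS replicate 4 (adjusted p = 0.22, limma), -0.07 ± 0.09 with library weights (adjusted p = 0.53, limma), and passed with library totals at -0.75 ± 0.16. Ppard was higher with LPS by 0.72 ± 0.08 in WT cells (adjusted p = 7.2e-07, limma), against -0.12 ± 0.08 in KO cells, which did not pass (adjusted p = 0.20, limma). With library totals the Ppard response was -0.51 ± 0.10 in KO cells, which passed, and 0.26 ± 0.10 in WT cells. Pparg and Fabp3 passed in neither genotype, but with library totals Pparg passed as lower in WT cells, at -0.94 ± 0.31 (adjusted p = 0.011, limma). Without WT with LPS replicate 4, the WT response was 1.74 ± 0.08 for Cd36, 2.67 ± 0.10 for Fabp4, 0.77 ± 0.03 for Lpl, 1.18 ± 0.04 for Plin2 and 0.81 ± 0.06 for Ppard, and all of these passed.

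The difference of the LPS responses, KO minus WT, contains the untreated contrast and is given without a p. The threshold was passed by 5 members, 2 higher and 3 lower, beside 20.7% of all genes (10.2% higher and 10.4% lower; 6 members and 39.1% without WT with LPS replicate 4), and nothing is read from that count. It was 2.47 ± 0.16 for Cd36, 0.82 ± 0.06 for Lpl, 0.26 ± 0.42 for Pparg, -0.18 ± 0.48 for Fabp3, -0.56 ± 0.20 for Fabp5, -0.75 ± 0.07 for Plin2, -0.84 ± 0.11 for Ppard and -2.30 ± 0.27 for Fabp4. Without WT with LPS replicate 4 it was 2.35 ± 0.11 for Cd36, 0.84 ± 0.04 for Lpl, -0.06 ± 0.36 for Pparg, 0.10 ± 0.45 for Fabp3, -0.73 ± 0.12 for Fabp5, -0.71 ± 0.05 for Plin2, -0.93 ± 0.08 for Ppard and -2.04 ± 0.14 for Fabp4. Positive values mean a more positive response in the KO.

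**Figure D2:**
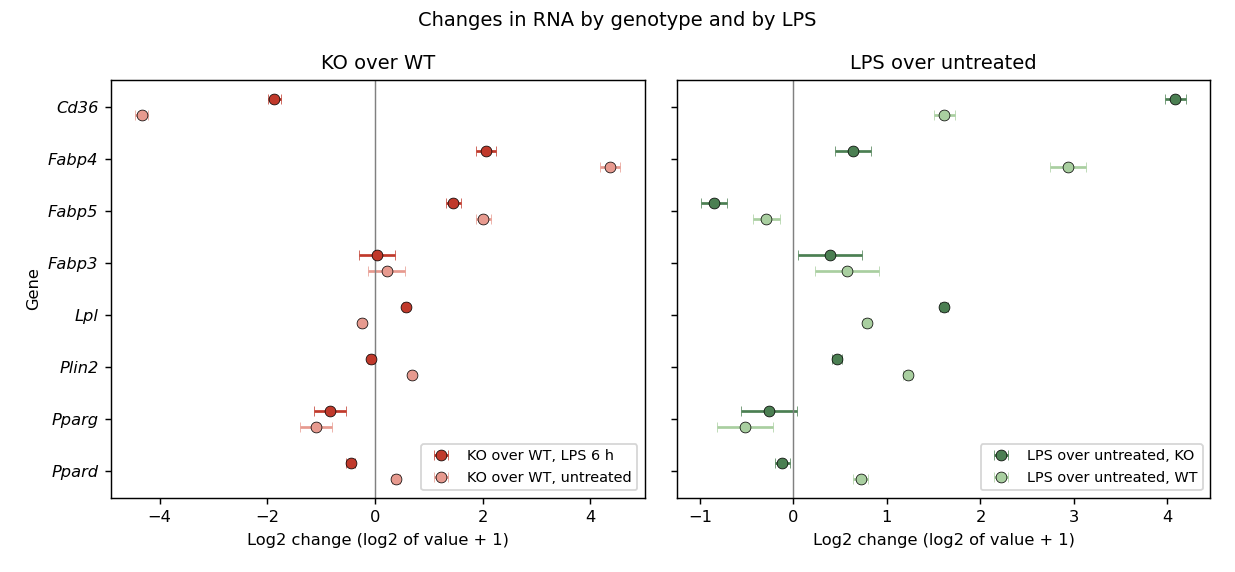
Log2 changes in RNA (log2 of value + 1) for each gene, KO over WT at left and LPS over untreated at right, with points for limma estimates and bars for SE. With LPS, Cd36 lay at -1.87 and Fabp4 at 2.06 KO over WT, and LPS moved Cd36 by 4.09 in KO and 1.62 in WT cells.

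Other genes of fatty acid handling were read as 7 lists with 103 genes, which leave out the members. The lists were chosen with earlier results of these data known. Their counts and medians are therefore a description and not support. In the synthesis and desaturation list, 9 of 12 genes tested were higher and 1 lower in KO than in WT cells with LPS, against 22.1% of all genes in each direction, and the list's median log2 difference was 0.40, against 0.00 over all genes (0.00106 before rounding). Elovl6, a fatty acid elongase, averaged 178 ± 9.28 normalised reads in KO with LPS and 84.7 ± 7.09 in WT with LPS, a difference of 1.07 ± 0.07 (adjusted p = 4.4e-09, limma). Fasn, the fatty acid synthase, differed by 1.01 ± 0.20 (adjusted p = 0.00090, limma; 0.70 ± 0.05 without WT replicate 4), and Acaca, which makes its malonyl-CoA, by 0.54 ± 0.13 (adjusted p = 0.0037, limma). Srebf1, the transcription factor that drives this programme, was the lower gene, at -0.41 ± 0.05 (adjusted p = 4.9e-06, limma). Without WT replicate 4 the list held 9 higher and 2 lower genes, beside 57.9% of all genes then called in either direction. Its median was then 0.24, with Elovl6 at 1.01 ± 0.06, Acaca at 0.38 ± 0.08 and Srebf1 at -0.40 ± 0.04. In untreated cells the same list held 4 higher and 3 lower genes, beside 18% and 17.5% of all genes. Its median there was -0.15, against 0.01 over all genes. Without WT with LPS replicate 4 the untreated counts were 5 higher and 7 lower, beside 59.3% of all genes called. Elovl6 was lower in the KO in untreated cells, at -0.22 ± 0.07 (adjusted p = 0.016, limma).

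Beside the counts of the lists below stand 22.1% of all genes higher and 22.1% lower in KO than in WT cells with LPS. A share near these is no result about a list. In the oxidation list 1 of 15 genes was higher and 5 were lower, with a median of -0.14. The lower genes included Acadvl, the mitochondrial long-chain acyl-CoA dehydrogenase (-0.57 ± 0.10, adjusted p = 0.00035, limma), Slc25a20, the carnitine carrier of the inner membrane (-0.48 ± 0.08, adjusted p = 0.00012), and Etfb, an electron acceptor of these dehydrogenases (-0.62 ± 0.19, adjusted p = 0.014; -0.34 ± 0.06 without WT replicate 4). In the droplet list 4 of 15 were higher and 5 lower. Dgat2, which completes triglyceride synthesis, averaged 7.03 ± 1.84 normalised reads in KO with LPS and 27.6 ± 3.47 in WT with LPS, a difference of -1.85 ± 0.22 (adjusted p = 7.5e-06, limma). Hilpda, an inhibitor of the lipase ATGL, differed by -0.80 ± 0.14 (adjusted p = 0.00023), and Abhd5, its activator, by 0.77 ± 0.08 (adjusted p = 2.3e-06). The uptake and activation list held 2 higher and 2 lower of 12, Slc27a1 (0.32 ± 0.06) and Acsl5 (-0.32 ± 0.05) among them.

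The lipoprotein lipase partners held 1 higher and 2 lower of 7, beside 22.1% of all genes in each direction. Angptl4, a secreted inhibitor of lipoprotein lipase, was low at 6.90 ± 2.92 normalised reads in KO with LPS and 2.72 ± 2.14 in WT with LPS, a difference of 1.29 ± 0.42 (adjusted p = 0.020, limma). Both other lipid carriers that passed the filter, Dbi (-0.53 ± 0.20, and -0.24 ± 0.08 without WT replicate 4) and Scp2 (-0.28 ± 0.10, and -0.16 ± 0.06 without it), were lower. Among PPAR partners and coregulators 7 of 16 were higher and 4 lower, beside the same 22.1% of all genes in each direction. Ppargc1b, a coactivator, differed by 1.04 ± 0.09 (adjusted p = 1.1e-07, limma) and Nr1h3, the oxysterol receptor LXRα, by -1.27 ± 0.17 (adjusted p = 2.6e-05, limma). This list's median of 0.39 became 0.08 without WT replicate 4, with the counts again 7 and 4. Without that library the uptake list held 2 higher and 5 lower and the oxidation list 2 higher and 7 lower, beside the 57.9% of all genes then called. The genes named from these lists were also called without it, at -0.45 ± 0.06 for Acadvl, -0.45 ± 0.08 for Slc25a20, -1.79 ± 0.25 for Dgat2, -0.62 ± 0.08 for Hilpda and 0.87 ± 0.05 for Abhd5. Slc27a1 then stood at 0.26 ± 0.04, Acsl5 at -0.31 ± 0.04, Angptl4 at 1.56 ± 0.41, Ppargc1b at 0.95 ± 0.07 and Nr1h3 at -1.16 ± 0.16.

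**Figure D3:**
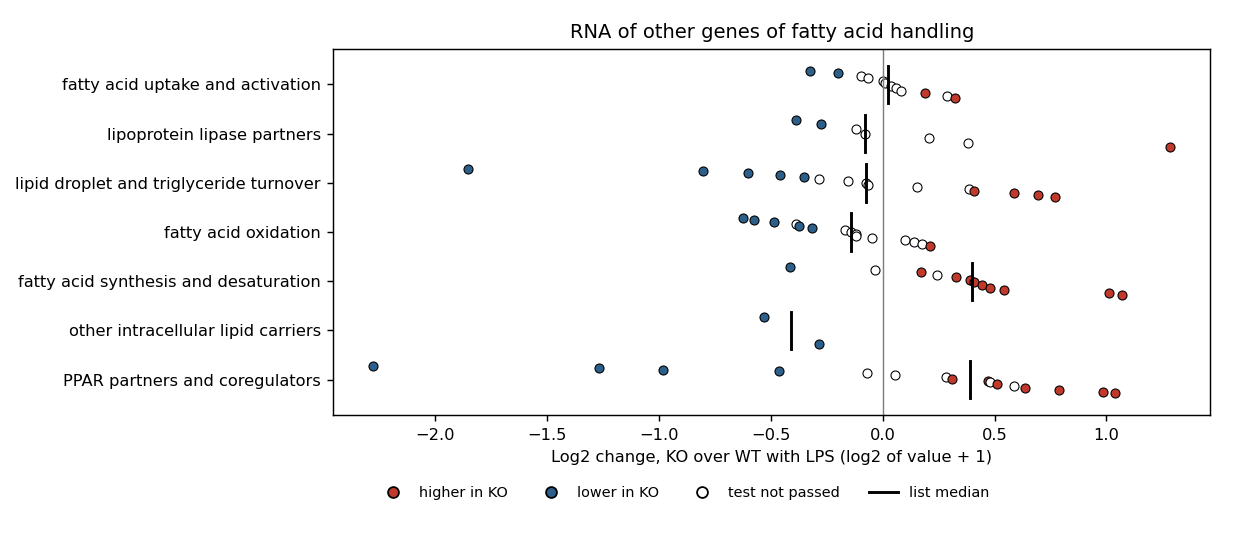
Log2 change in RNA, KO over WT with LPS, of each tested gene in 7 lists of fatty acid handling genes, with filled points past adjusted p under 0.05 and bars at list medians. The synthesis and desaturation list holds 9 filled points on the higher side and 1 on the lower, with its median at 0.40.

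Over the 16 RNA libraries, the genes whose log2 levels ran most like Cd36 were Fos (Pearson r = 0.992), Gypc (r = 0.992) and Tubb6 (r = 0.988). Those most like Fabp4 were Sqor (r = 0.992), Rbmx (r = 0.991) and Gadd45a (r = 0.988). The 16 libraries fall into the 4 groups, so these values describe mostly the group means.

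Open chromatin was measured in untreated cells only, on the log2 scale of the authors' deposited table, whose exact transformation was not given in the sources used here. A site was called at adjusted p under 0.05 in limma over all 73206 sites. Of the 70 member sites 8 were higher and 9 lower in KO than in control cells, beside 4.04% of all sites higher and 3.16% lower (7.2% in either direction). All 4 Fabp4 sites and 4 of 6 Fabp5 sites were higher, and 5 of 13 Cd36 sites were lower. None of the Fabp3 and Plin2 sites passed, and 2 of 6 Ppard, 1 of 14 Lpl and 1 of 14 Pparg sites were lower. Sites near a gene share their neighbourhood and are not independent. The count of 17 was 9 without control replicate 1 or KO replicate 2, 10 without control replicate 2 and 11 without KO replicate 3. It was 8 with no trend of the spread on the mean. Shares of all sites at these settings are not given here, so the lower counts are no result about the members.

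At Cd36, the open site at -387 bases from a start (chr5:17355340-17356654) had levels of 4.26, 4.11 and 4.26 in KO libraries, against 4.85, 4.88 and 4.84 in control libraries. The groups were apart, by -0.65 ± 0.08 (adjusted p = 5.3e-13, limma), the largest difference among the 13 Cd36 sites. Sites in the first intron of an annotated Cd36 transcript, at chr5:17360124-17360869 and chr5:17385578-17386461, differed by -0.32 ± 0.08 and -0.28 ± 0.08 (adjusted p = 0.0040 and 0.012, limma). The inner start of Cd36 (chr5:17341698-17341933) differed by -0.10 ± 0.04 and did not pass (adjusted p = 0.087, limma). The second intronic site lost its call without control replicate 1 (adjusted p = 0.055) or KO replicate 1 (adjusted p = 0.094, limma).

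At Fabp4, the site over the start had levels of 3.87, 3.76 and 3.83 in KO libraries, against 3.42, 3.40 and 3.44 in control libraries. This difference of 0.40 ± 0.06 (adjusted p = 5.7e-07, limma) was the largest of the 4 Fabp4 sites, and the others differed by 0.19 to 0.23. Fabp5 is on the same chromosome. Its intergenic site 10184 bases after the start (chr3:10022333-10023206) had levels of 6.57, 6.54 and 6.53 in KO libraries, against 5.33, 5.73 and 5.44 in control libraries. The difference of 1.05 ± 0.08 (adjusted p = 2.9e-26, limma) was the largest over the 70 member sites. The site over the Fabp5 start differed by 0.31 ± 0.08 (adjusted p = 0.0024, limma), a call lost without KO replicate 2 (adjusted p = 0.069) or with no trend (adjusted p = 0.083, limma). Start sites of Lpl, Plin2, Ppard, Pparg and Fabp3 differed by -0.06 to 0.13 and did not pass.

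**Figure D4:**
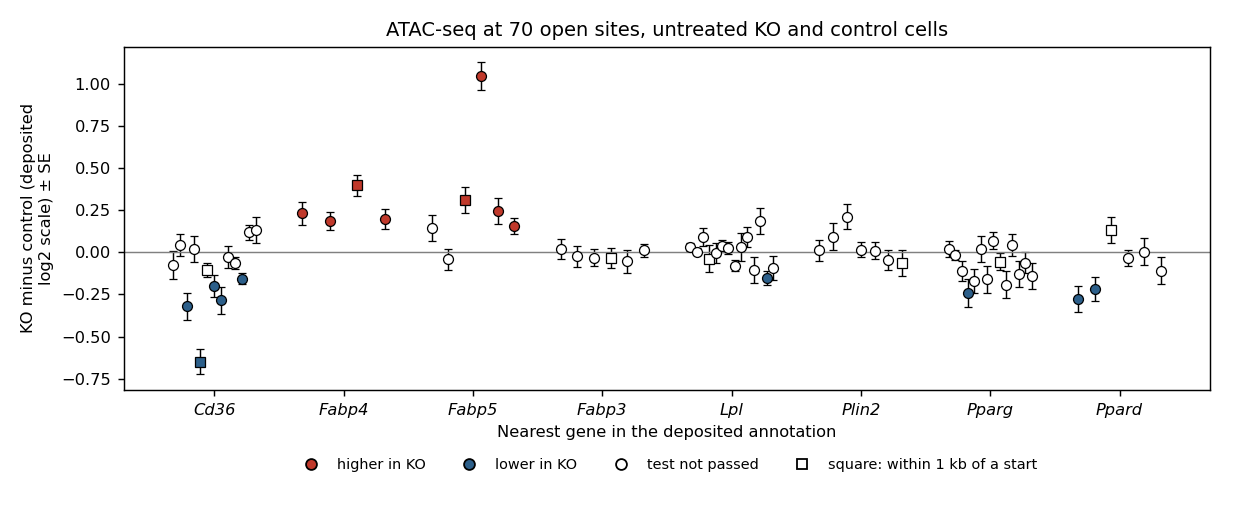
KO minus control difference on the deposited log2 scale (± SE) at each of the 70 open sites, grouped by nearest gene and ordered by distance from the start, squares within 1 kb of a start. All 4 Fabp4 sites lie above 0, the Fabp5 site 10184 bases after its start at 1.05, and the Cd36 promoter site at -0.65.

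In ChIP-seq the 2 libraries of each group were summed and counted as 1 sample, and no test was run. The chi-square per site between them was 0.823 to 0.985 in the 4 PU.1 groups and in JunB but for untreated KO, no more than sampling noise gives. It exceeded that noise in JunB untreated KO (1.28), MED1 (1.06 in KO and 1.06 in WT) and RNA polymerase II (1.04 in KO and 1.11 in WT), so intervals that use these groups are too narrow. Ratios are KO over WT with an exact 95% interval that covers counting error only, and a site was called at 1.5-fold or more. The scaling changed many directions, since the share of reads in sites was lower in KO than in WT libraries, from 25.7% in KO and 29.0% in WT for JunB with LPS to 14.3% in KO and 45.7% in WT for RNA polymerase II. Ratios with library totals were lower than those with trimmed means by a log2 shift of -0.55 for PU.1 untreated, -0.42 for PU.1 with LPS, -0.30 for JunB untreated, -0.15 for JunB with LPS, -0.77 for MED1 and -1.88 for RNA polymerase II. Both are given below, levels on the trimmed mean scale.

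PU.1, the lineage factor of macrophages, was called higher at 9 and lower at 5 of 43 member sites in untreated cells (8.15% and 11.7% of all sites, 19.8% together), which became 2 and 18 with library totals (0.879% and 47.3%). With LPS the counts were 5 and 11 (15.9% and 12.9%, 28.7% together), and 2 and 23 with library totals (6.33% and 36.8%). At the inner start of Cd36 (chr5:17341741-17342047) PU.1 had 10.5 and 15.7 normalised reads in untreated KO libraries, against 44.0 and 36.5 in untreated WT libraries, from 23 and 115 reads. The ratio was 0.32 (0.195 to 0.504), and 0.218 with library totals. With LPS the levels were 30.6 and 29.1 in KO and 55.6 and 42.3 in WT libraries, a ratio of 0.615 (0.416 to 0.897), and 0.460 with library totals. PU.1 at this site was thus lower in the KO in both states and under both scalings. An intronic Cd36 site (chr5:17384373-17384654) stood at 0.457 (0.326 to 0.632) with LPS, and 0.342 with library totals.

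At Fabp5, PU.1 13418 bases after the start (chr3:10025865-10026141) had 110 and 139 normalised reads in untreated KO libraries, against 45.3 and 50.9 in untreated WT libraries, a ratio of 2.58 (2.07 to 3.21), and 1.76 with library totals. With LPS the ratio there was 1.28 (0.91 to 1.81), and 0.961 with library totals, so its direction turned with the scaling. At Fabp4, PU.1 at -4839 bases from the start (chr3:10213323-10213587) stood at 2.07 (1.41 to 3.04) in untreated cells, and 1.41 with library totals. At Pparg, 4 of 8 PU.1 sites were lower with LPS, down to 0.372 (0.183 to 0.705), and 0.278 with library totals.

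JunB, an AP-1 subunit induced by LPS, was called higher at 12 and lower at 15 of 61 member sites with enough reads in untreated cells (22.4% and 22% of all sites, 44.4% together), and at 10 and 25 with library totals (14.4% and 35.9%). With LPS it was higher at 12 and lower at 13 of 62 (15.8% and 11%, 26.8% together), and at 8 and 16 with library totals (11.2% and 17.6%). Over the Fabp4 start JunB had 38.0 and 44.4 normalised reads in KO with LPS, against 11.0 and 12.7 in WT with LPS. The ratio was 3.51 (2.64 to 4.73), and 3.17 with library totals. In untreated cells it was 3.08 (1.81 to 5.38), and 2.50 with library totals. The site at -3349 bases from the Fabp4 start stood at 2.26 (1.89 to 2.72) with LPS, and 2.04 with library totals.

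JunB at the Fabp5 site 10028 bases after the start (chr3:10022444-10022782), inside the open site shown above, had 49.9 and 51.4 normalised reads in KO with LPS, against 12 and 17 in WT with LPS. The ratio was 3.53 (2.73 to 4.62) with LPS and 3.36 (1.85 to 6.30) untreated, and 3.19 and 2.73 with library totals. JunB was thus higher in the KO at the Fabp4 start and this Fabp5 site in both states and under both scalings. At Pparg, 7 of 16 JunB sites were lower and 2 higher with LPS, and the 2 higher ones were not called with library totals. At Cd36, 3 of 13 JunB sites were lower and 2 higher with LPS, the higher ones 87413 and 107593 bases from the nearest Cd36 start.

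In the LPS responses, library totals turned the direction at 8 of 43 PU.1 member sites in KO and 24 of 43 in WT cells, and at 25 of 62 JunB member sites in KO and 20 of 62 in WT cells. PU.1 was called higher at 12 and lower at 8 of 43 member sites in KO cells (20.7% and 16.4% of all sites, 37% together), and at 5 and 22 with library totals (6.89% and 49.1%). In WT cells it was higher at 11 and lower at 3 (13.2% and 14.2%, 27.4% together), and at 2 and 13 with library totals (1.8% and 59.4%). JunB was higher at 22 and lower at 9 of 62 member sites in KO cells (33.2% and 26%, 59.2% together), and higher at 60 and lower at 0 with library totals (94% and 0.367%). In WT cells JunB was higher at 19 and lower at 8 (28.7% and 24.4%, 53.1% together), and higher at 62 and lower at 0 with library totals (96.5% and 0.073%). With LPS against untreated, PU.1 at the inner Cd36 start stood at 2.30 (1.36 to 4.00) in KO and 1.2 (0.895 to 1.6) in WT cells, and at 1.55 in KO and 0.735 in WT cells with library totals.

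MED1, a Mediator subunit that marks active enhancers, was measured with LPS only and was called higher at 11 and lower at 7 of 44 member sites (10.5% and 8.31% of all sites, 18.8% together), which became 3 and 21 with library totals (1.27% and 67.1%). At the same Fabp5 region (chr3:10022220-10023522) MED1 had 35.4 and 41.3 normalised reads in KO libraries, against 11.7 and 10.8 in WT libraries. The ratio was 3.41 (2.18 to 5.46), and 2.00 with library totals. The MED1 site at -3371 bases from the Fabp4 start stood at 2.73 (1.57 to 4.88), and 1.6 with library totals. At the Cd36 promoter (chr5:17355325-17355971) MED1 had 3.43 and 3.26 normalised reads in KO libraries, against 8.59 and 11.6 in WT libraries, from 6 and 26 reads, a ratio of 0.331 (0.111 to 0.822), and 0.194 with library totals. Of 14 Lpl sites 7 were called higher, among them the start (chr8:71402666-71408229) at 1.90 (1.64 to 2.21), which was 1.12 with library totals. With library totals 1 Lpl site was called higher and 2 lower.

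RNA polymerase II was called higher at 14 and lower at 4 of 27 member sites with LPS (24% and 21.5% of all sites, 45.5% together), and at 1 and 24 with library totals (2.8% and 90.1%). No site had Fabp4 or Fabp3 as its nearest gene. Over the 5′ part of Cd36 (chr5:17343504-17356052) it had 120 and 130 normalised reads in KO libraries, against 270 and 292 in WT libraries. The ratio was 0.445 (0.371 to 0.529), and 0.121 with library totals, lower either way. All 5 Lpl sites were called higher and all 5 were called lower with library totals. The region over most of Lpl (chr8:71402382-71421835) stood at 1.5 (1.43 to 1.58), and at 0.407 with library totals. Plin2 over its start (1.90, and 0.515 with library totals) and Fabp5 over its body (1.70, and 0.461 with library totals) likewise changed direction with the scaling.

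**Figure D5:**
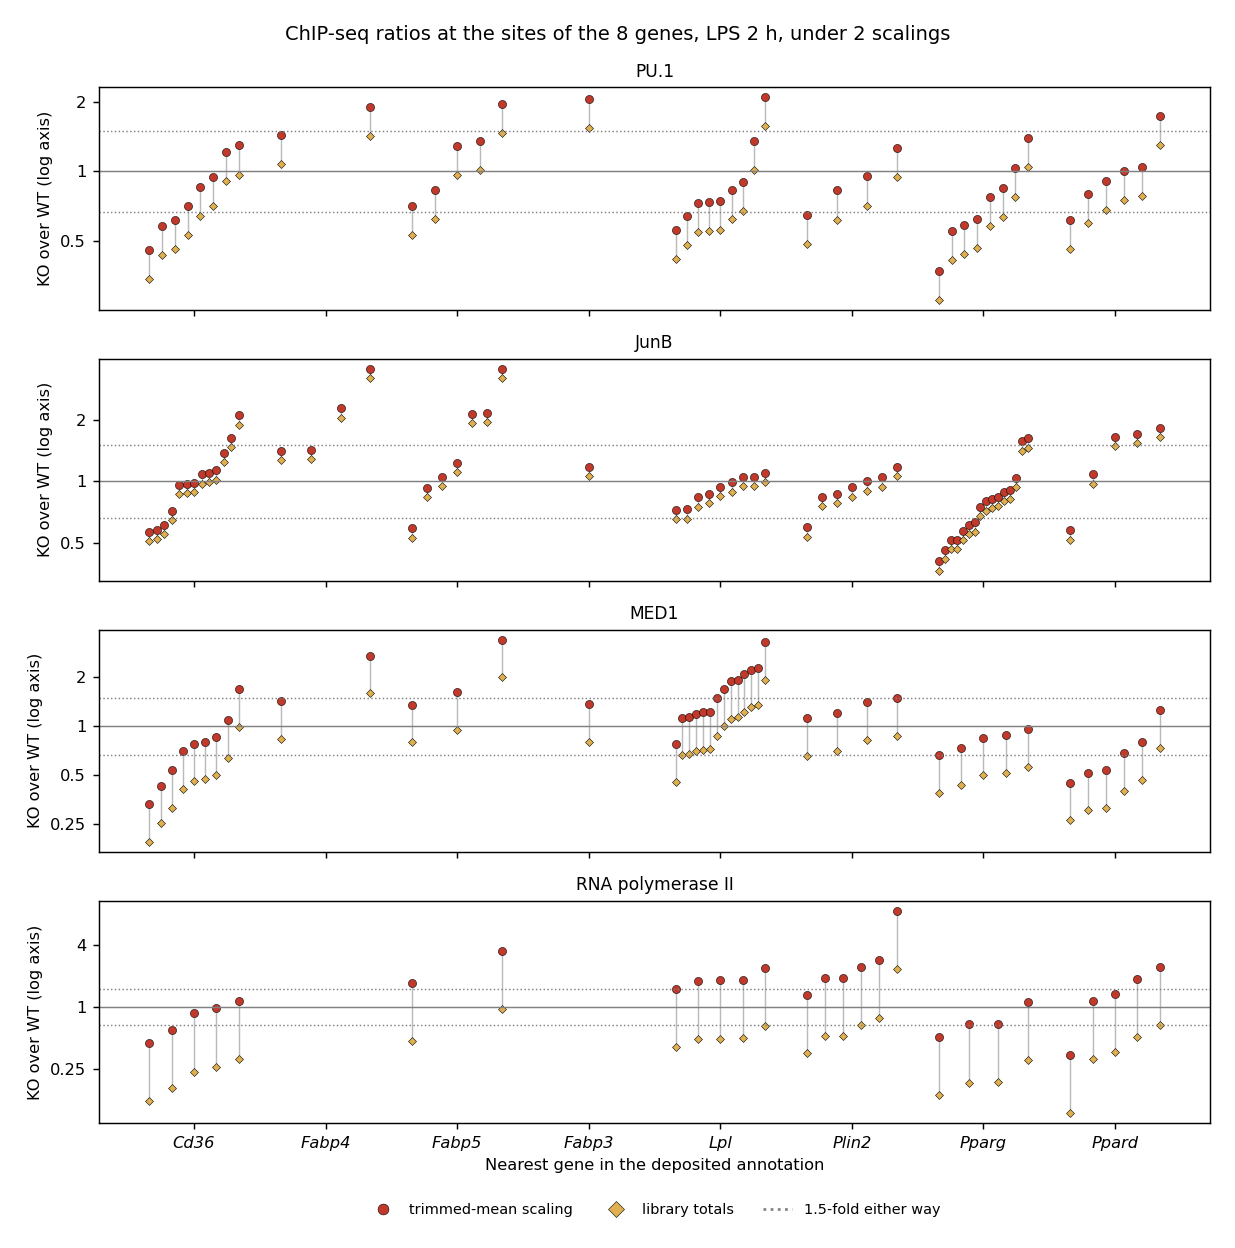
KO over WT ratio (log axis) at each member site in PU.1, JunB, MED1 and RNA polymerase II ChIP-seq with LPS for 2 h, circles with trimmed-mean scaling and diamonds with library totals. JunB at Fabp4 and Fabp5 reaches 3.51 and 3.53 and stays above 1 under both scalings, while all 5 Lpl polymerase sites cross 1.

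The summed level of the osteoclast marker list was higher in KO than in WT cells after LPS through Mmp9, while its other genes went in both directions. The sum was 6239 to 6479 in KO with LPS, 1802 to 2345 in WT with LPS, 1291 to 1383 in KO untreated and 1193 to 1335 in WT untreated, with 7 of 8 genes tested. Mmp9, a matrix protease that activated macrophages also make, averaged 5189 normalised reads in KO with LPS and 976 in WT with LPS, and carried most of the KO sum. Ctsk, Dcstamp and Atp6v0d2 averaged 172, 299 and 86.3 in KO with LPS, against 87.0, 202 and 25.9 in WT with LPS. Acp5, Nfatc1 and Ocstamp averaged 123, 467 and 21.6 in KO with LPS, against 178, 615 and 71.8 in WT with LPS. Granulocyte and dendritic cell markers summed to 230 to 258 in KO with LPS and 311 to 371 in WT with LPS. Untreated, they summed to 133 to 141 in KO and 38.9 to 51.4 in WT cells. Of the 10 listed, 5 had no row. With LPS, Xcr1 averaged 89.2 in KO and 206 in WT, Itgax 84.9 and 88.3, and Zbtb46 2.47 and 3.92. Csf3r averaged 52.3 in KO and 28.5 in WT with LPS, and S100a8 17.5 and 9.39. Untreated, Csf3r averaged 94.5 in KO and 16.6 in WT, Itgax 26.7 and 14.2, and S100a8 4.52 and 0.260. Xcr1 then averaged 2.68 and 2.93, and Zbtb46 7.38 and 11.2. Fibroblast, epithelial and lymphocyte lists summed to at most 1.1 in any library. The part of these lists in the results above was not tested.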

How the data were processed

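RNA-seq and ChIP-seq tables were deposited by the authors as reads per 10000000 mapped reads, per the file headers, and open chromatin as log2 values in the authors' deposited table. The submitters' processing notes name Bowtie2, BWA, HISAT2, HOMER, MACS2, DESeq2, edgeR and build mm9, and HOMER made the tables per the file headers. Whole reads were recovered from the RNA values through the worth of 1 read in each library's low values (within 0.05 of a read) and from the ChIP-seq values through the totals in the headers. RNA was tested with limma 3.58.1 (R 4.3.3) on log2(value + 1) after trimmed mean scaling, over all 16 libraries and 11791 genes with at least 10 reads, at the median depth, in 4 libraries and 15 reads in all. Open chromatin was tested with limma on the deposited log2 values of 3 against 3 libraries. P-values were adjusted by Benjamini-Hochberg over all features. ChIP-seq sites with at least 10 reads were compared as ratios without a test. The count tests first planned were not used, since no deposited column holds counts. Both limma fits were tested on simulated data. Replicate numbers did not pair the libraries, and 8 rescaled copies of columns were not used. The members and lists were chosen with earlier results of these data known. Beyond the members, genes named were up to 3 called genes per list with the largest absolute log2 change between KO and WT with LPS, and the 3 genes most like Cd36 and Fabp4 by correlation, while Srebf1, the osteoclast markers and the Fabp5 sequence were named after their values were seen. Motif, sequence and ratio steps used Python 3.11.15. One sequence is not reported here.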

Additional observations from a re-analysis of the deposited data

Results flagged for a closer look

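Of 36 groups of 4 RNA libraries checked for a library far from the others, 2 stood out, and chance alone sets a small share of groups apart. Lpl in KO with LPS was highest in replicate 2, at 43375 normalised reads, while the others held 42011 to 42243. Gps2 in WT with LPS was highest in replicate 4, at 496 normalised reads, while the others held 420 to 424.

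The LPS responses of 5 members lay apart between the genotypes, by 2.47 for Cd36, 0.82 for Lpl, -0.75 for Plin2, -0.84 for Ppard and -2.30 for Fabp4 on the log2 scale, KO minus WT. The 5 are the members that passed the threshold in limma. These differences contain the untreated contrast on which the members were chosen, so that pass is not read as support and the values are a description.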

How the results depend on the processing

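Over the alternatives for RNA and open chromatin, 1027 results kept their direction and side of the threshold or stayed near their value. Of the others, 14 passed the threshold newly, 25 lost it and 13 changed direction. ChIP-seq stands outside that tally. For KO over WT, library totals turned the direction at 16 of 43 PU.1 and 8 of 61 JunB member sites in untreated cells. With LPS they turned it at 7 of 43 for PU.1, 10 of 62 for JunB, 17 of 44 for MED1 and 18 of 27 for RNA polymerase II. Fabp3 changed direction for KO over WT with LPS (-0.23 to 0.32 leaving out 1 library) and for the difference of responses (-0.45 to 0.10, and 0.064 with library weights), as did Pparg for the difference (-0.062 to 0.46, and -0.053 with library weights). None of these passed the threshold in the fits given above. Start sites of Lpl (-0.098 to 0.056), Plin2 (-0.14 to 0.0017) and Fabp3 (-0.059 to 0.017) did so in open chromatin. The 17 member open sites called became 11 above the median level, 8 with no trend and 9 to 13 leaving out 1 library. Shares of all sites at these settings are not given, and nothing is read from these counts. At 2-fold, calls were 6 of 43 for PU.1 untreated (4.57% of all sites), 4 of 43 with LPS (9.87%), 8 and 5 of 43 for the PU.1 response in KO and WT (14.3% and 8.33%), 16 of 61 and 8 of 62 for JunB untreated and with LPS (22.3% and 7.77%), 11 of 62 for the JunB response in WT (28.8%), 9 of 44 for MED1 (5.07%) and 8 of 27 for RNA polymerase II (22.6%). At 100 reads or more they were 7 of 27, 4 of 15, 3 of 12 and 7 of 25 for PU.1 in the same order (12.0%, 15.6%, 27.4% and 21.3%), 1 of 13 for JunB untreated (18.1%), 14 of 33 for the JunB response in KO (51.6%) and 5 of 19 for MED1 (9.47%). With library totals they were 25 for PU.1 with LPS and 60 and 62 for the JunB response in KO and WT. The cause was not tested. Leaving out 1 library gave 5 to 6 members for KO over WT with LPS. A fit with the replicate number as a block left the counts of members at 7, 6, 5 and 5 for the contrasts between genotypes and the responses. Shares of all genes are not given for each of these fits, and nothing is read from their counts. The check of pairing compared RNA libraries of different groups. In it, same-numbered libraries correlated at -0.367 to 0.211 and differently numbered ones at -0.358 to 0.432. These values do not measure how far the levels of libraries agree. Precision weights on recovered reads, and lists without WT with LPS replicate 4, were chosen after seeing the data. edgeR and DESeq2 were not run. ChIP-seq intervals cover counting error only.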
